A study of Mus musculus with 2 samples.

Results

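The Sprr1a-rich spots were the 92 of 921 capture spots of the TOP2B transgenic heart section with the highest share of Sprr1a and Gap43 transcripts. Each spot over tissue with at least 1000 unique molecular identifiers (UMIs, 1 per captured probe pair) was given a score, the UMIs of both genes divided by all UMIs of the spot, and the top 10% of spots were taken, with ties settled by barcode order. These values chose the spots, so they are given once as a description and support nothing below. The score ran from 362 to 1751 UMIs per 1000000 UMIs (CPM) in the chosen spots, with a median of 654, and up to 361 in the other 829 spots, of which 482 held no UMI of either gene. Just inside the limit stood spots at 362, 364 and 364 CPM, and just outside it spots at 361, 358 and 357. A chosen spot held from 1 to 27 UMIs of both genes together, with a median of 10, and 1 spot rested on no more than 2.

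Both hearts came from mice with the α-MHC-MerCreMer transgene in 1 copy, a tamoxifen-activated Cre recombinase driven by a cardiomyocyte promoter. The transgenic heart also carried 1 copy of TOP2B LSL, a human TOP2B cDNA behind the CAG promoter at the Rosa26 locus that is silent until Cre removes a stop cassette. TOP2B encodes DNA topoisomerase 2-beta. Both genotypes received tamoxifen as a single intraperitoneal dose of 80 mg/kg, so the control had Cre and tamoxifen but no TOP2B allele, and the time from injection to harvest of these hearts was not given in the sources used here. Formalin-fixed, paraffin-embedded sections were measured with Visium CytAssist probes, with 1 section per genotype. No replicate exists, and spots of 1 section are not replicates: no test was made, and each interval below is an exact 95% interval that covers counting error only. A spot can hold several cells of different types or part of one. Mouse Top2b stood at 102 CPM in the Sprr1a-rich spots, 102 in the remaining spots and 107 in the control section, which gives no check on the human transgene, because whether the mouse probes read it was not tested.

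Sprr1a encodes a small proline-rich protein of the epithelial cornified envelope, known outside the skin as a gene switched on in cardiomyocytes by cytokines of the gp130 family and in neurons after axon injury. Gap43 encodes a growth-associated protein of extending axons. In heart muscle under load, cardiomyocytes are known to return to fetal genes such as Nppa and Myh7 and to lower the genes of fat oxidation, while resting fibroblasts can turn into matrix-secreting cells that express Postn and Cthrc1.

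The same score in the control section is given as a further description, since it uses the values that chose the spots. Its 1249 spots with enough UMIs held 10 Sprr1a and 20 Gap43 UMIs in all, and its highest score was 142 CPM. None of them passed the limit set in the transgenic section, 0 of 1249, which allows a share of up to 0.240%. The Sprr1a-rich spots summed to 1458472 UMIs, the remaining spots to 11494158 and the control section to 14372971. Depth differed little between the first pair of groups, with 2185 to 24774 UMIs per Sprr1a-rich spot (median 15819) and 1619 to 28695 per remaining spot (median 14365). Across the 921 spots the score nevertheless correlated with UMIs per spot (Spearman rho 0.30, a description over spots that share 1 library). With spots thinned to 5000 UMIs for the score, 69 of 88 chosen spots were among the 92. With only spots of at least 5000 UMIs, all 88 were. What further part depth had in the results was not tested. The sections shared 724 barcodes, which are positions on the array and not cells.

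Most Sprr1a-rich spots lay together in the upper right of the section. Of their 6 possible neighbors on the hexagonal array, those over tissue were themselves Sprr1a-rich in 52.8% of cases, against 5.67% for the neighbors of remaining spots. They formed 19 connected groups, of which 2 held at least 5 spots. The larger patch had 54 spots (58.7% of all), in array rows 21 to 30 and columns 66 to 93, and the smaller patch had 12 spots, in rows 21 to 25 and columns 53 to 61. The other 26 were scattered in 17 groups, 10 of them single spots, most of them along the right and lower wall. No spot of the larger patch touched the tissue edge, whereas 11 of the 26 scattered spots (42.3%) did. Over all Sprr1a-rich spots 12.0% lay at the edge, against 35.8% of the remaining spots. The word foci thus fits 66 of the 92 spots and not the others.

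**Figure D1:**
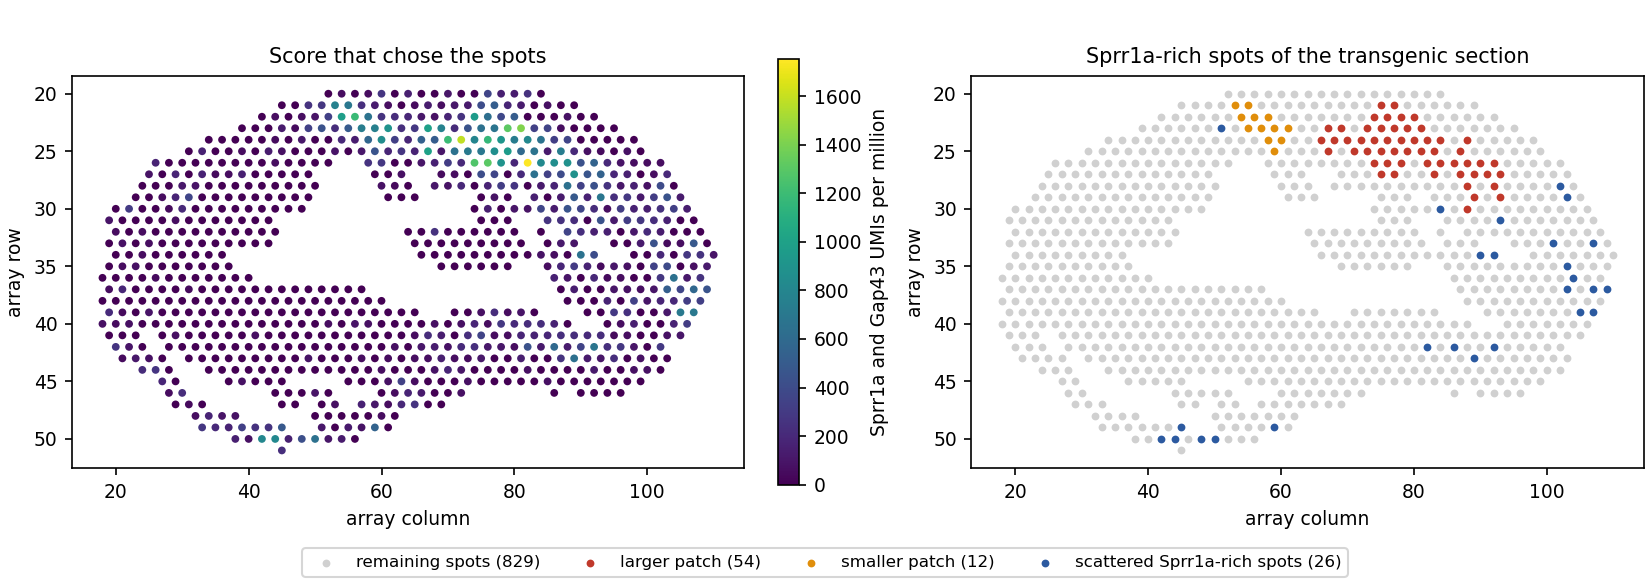
Maps of the transgenic section by array column and array row, 1 point per spot. The left panel colors each spot by its summed Sprr1a and Gap43 CPM, and the right panel shows the 92 Sprr1a-rich spots as the larger patch (54), the smaller patch (12) and scattered spots (26) among the 829 remaining spots; the highest scores, up to 1751 CPM, lie in the upper wall.

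Apart from the genes that chose them, the Sprr1a-rich spots led with secreted matrix genes of activated fibroblasts and stood lowest, next to red cell genes, for genes of mitochondrial energy metabolism. Of 9400 genes with at least 100 UMIs over all spots used, 527 were at least 1.5-fold higher than in the remaining spots (5.61%) and 495 at least 1.5-fold lower (5.27%). Counting error left the ratio's interval clear of equality for 450 and 338 of these, and 328 of the higher and 212 of the lower genes had the same direction in every quadrant. The median gene had a log2 ratio of 0.05. Scaling by edgeR TMM or DESeq2 size factors in place of total UMIs moved every log2 ratio by -0.11 and turned the split to 326 higher and 769 lower. Under it the medians of the AP-1, glycolysis, Z-disc, p53 and cell cycle lists, all below 0.11 in what follows, lie below 0, as do single genes with ratios between 0 and 0.11. Genes only just past 1.5-fold upward, such as Myh11, Tgfb3, S100a6, Stmn2 and Myl7, fall short of it under this scaling. The counts past the fold given below hold for scaling by total UMIs. A level in a spot mixes how many cells of a type it holds and how much RNA each makes, and fewer cells of a type and less RNA per cell cannot be told apart here.

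Thrombospondin-4, a matrix glycoprotein of stressed heart muscle encoded by Thbs4, had the highest ratio among genes with at least 500 UMIs that differed in the same direction in every quadrant of the section. Its level ran from 0 to 1399 CPM per Sprr1a-rich spot with a median of 189, and from 0 to 1599 with a median of 0 in the remaining spots, so the ranges of the groups overlapped and most remaining spots held no Thbs4 UMI. Summed, it stood at 275 against 63.7 CPM, 4.32-fold higher (log2 2.11, 1.93 to 2.29), and at 1.67 CPM in the control section. Cish, which encodes a cytokine-induced inhibitor of JAK-STAT signaling, was among the 12 genes with the lowest ratios, at 37.1 against 110 CPM (log2 -1.57, -1.99 to -1.17) and 193 CPM in the control section. Their promoters are shown because they are the first of the 12 highest and of the 12 lowest genes to hold the MCAT element, known from heart muscle promoters, with the letters CATTCC. The sequences come from RefSeq (GRCm38.p6) and span the 250 bases before each gene's start, 5′ to 3′ on the gene's strand, with CATTCC in capitals. Thbs4 lies on the minus strand at chr13:92794819-92795068 and holds 2 overlapping matches, the first 197 bases before the start. Cish lies on the plus strand at chr9:107296409-107296658 and holds 1 match, 167 bases before the start.
Thbs4: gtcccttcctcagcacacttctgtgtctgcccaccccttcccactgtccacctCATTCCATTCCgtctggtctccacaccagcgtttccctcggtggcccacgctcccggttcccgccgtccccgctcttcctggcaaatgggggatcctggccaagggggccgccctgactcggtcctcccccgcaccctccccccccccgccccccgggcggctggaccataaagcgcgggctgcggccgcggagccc
Cish: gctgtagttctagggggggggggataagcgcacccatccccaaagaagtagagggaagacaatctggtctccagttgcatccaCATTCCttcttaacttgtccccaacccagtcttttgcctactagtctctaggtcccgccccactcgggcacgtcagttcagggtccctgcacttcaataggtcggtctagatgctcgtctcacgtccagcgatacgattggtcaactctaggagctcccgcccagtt

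In windows of 300 bases (250 before to 50 after the start), searched on both strands, CATTCC stood in 14.7% of 32851 promoters. Counted by gene, as below, 16.6% of 27025 genes held it in at least 1 promoter. Among the 12 highest genes, 9 had a promoter in the table and 1 of them, Thbs4, held it. Among the 12 lowest, 11 had a promoter and 2 held it, Cish and Igf2. The AP-1 element TGANTCA, present in 7.81% of promoters and 8.97% of genes, was found in none of the 9 and in 3 of the 11 (Hbb-bs, Plin5 and Cyp4b1). The cAMP response element TGACGTCA, present in 1.79% of promoters and 2.03% of genes, was found in neither group. A match describes letters in a window and not a bound site, and the absence of one says nothing of the factor.

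The 12 highest genes were mostly matrix proteins and secreted factors. After Thbs4 came Ltbp2, a binding protein of elastic microfibrils (220 against 66.9 CPM, log2 1.72), and Postn, the matricellular protein periostin. Postn ran from 0 to 3476 CPM per Sprr1a-rich spot (median 1046) and from 0 to 3426 per remaining spot (median 271), and summed to 1264 against 413 CPM (log2 1.61, 1.54 to 1.69), with 18.2 CPM in the control section. Comp, a cartilage oligomeric matrix protein, stood at 639 against 217 CPM (log2 1.56), with spot medians of 603 and 53.6. The collagen-binding proteoglycan Fmod, the collagen crosslinking enzyme Lox and the cartilage intermediate layer protein Cilp were 2.61-fold, 2.61-fold and 2.42-fold higher, and Fndc1, a fibronectin-domain protein, 2.58-fold.

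The 4 remaining genes of the 12 were not matrix genes. Serpina3n, a secreted inhibitor of serine proteases, stood at 326 against 125 CPM (log2 1.38, 1.23 to 1.53), with spot medians of 277 and 64.6 CPM. Lcn2, which encodes the iron-siderophore carrier lipocalin-2, stood at 116 against 46.5 CPM (log2 1.32). Tubb3, a beta-tubulin best known from neurons, stood at 121 against 42.7 CPM (log2 1.51, 1.25 to 1.76). Kcnj14 encodes an inward rectifier potassium channel and was 2.52-fold higher.

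For each of these 12 genes, between 76.1% and 94.6% of the Sprr1a-rich spots lay above the median of the remaining spots, and the ranges of the groups overlapped. All 12 were also higher in the remaining spots than in the control section, where their levels lay between 0.696 and 23.2 CPM. Their deposited Moran's I, a score of how strongly neighboring spots resemble each other, lay between 0.18 and 0.67 in the transgenic section and between -0.01 and 0.06 in the control section.

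**Figure D2:**
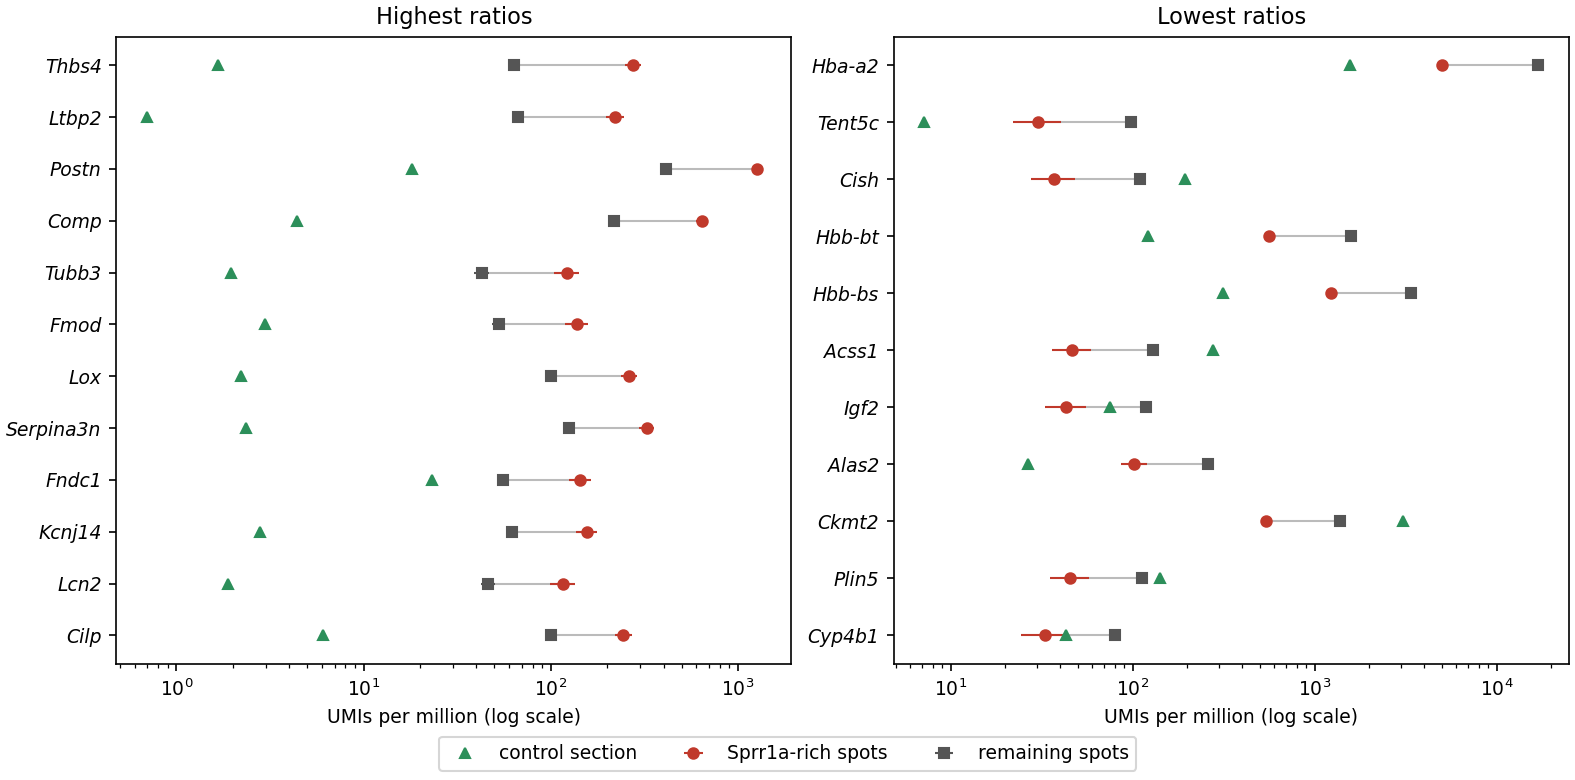
Summed CPM on a log scale for the 12 genes with the highest ratio and for 11 of the 12 with the lowest. Circles are the Sprr1a-rich spots, squares the remaining spots, both with exact 95% Poisson intervals, and triangles the control section; the control lies below both groups for all 12 genes on the left, and above both for Cish, Acss1, Ckmt2 and Plin5 on the right.

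As a list, the activated fibroblast genes had the highest median of all lists with more than 3 tested genes (log2 1.38). Of 12 listed genes 11 could be measured, 9 were at least 1.5-fold higher and 0 lower. Cthrc1, which marks matrix-producing fibroblasts after injury, stood at 127 against 30.7 CPM (log2 2.05, 1.78 to 2.31). It is not among the 12 highest genes because it did not keep the same direction in every quadrant. Timp1, an inhibitor of matrix metalloproteinases, and the matrix protein Tnc had log2 ratios of 0.95 and 0.82, and the transcription factor Meox1 one of 0.34. Summed over the list, the Sprr1a-rich spots ran from 724 to 6840 CPM with a median of 3022, and the remaining spots from 0 to 8336 with a median of 931. Of the Sprr1a-rich spots 90 lay above the median of the remaining spots. Against the remaining spots of their own quadrant of the section, the list's median was 0.89 in the upper right (62 of the 92 spots), 2.18 in the upper left, 0.63 in the lower right and 0.89 in the lower left. The list summed to 72.0 CPM in the control section, against 1199 in the remaining spots of the transgenic section.

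Fibrillar collagens followed with a median log2 ratio of 0.75 over 7 genes, of which 5 were at least 1.5-fold higher and 0 lower. Within quadrants the median was smaller in the upper right (0.37) and lower right (0.33) and larger in the upper left (1.12) and lower left (0.87). Col5a2 stood at 748 against 346 CPM (log2 1.11, 1.01 to 1.21), Col1a2 at 2925 against 1597 (log2 0.87) and Col3a1 at 2693 against 1638 (log2 0.72). Col5a3 differed by less than its counting error (log2 -0.15, -0.55 to 0.23). Among 16 basement membrane genes, which encode the sheet around muscle cells and vessels, the median was 0.39 and 3 were at least 1.5-fold higher (Col18a1, Lama5 and Col15a1), with Lamb1 lowest at -0.26. Among 11 genes of the TGF-beta pathway, the main driver of matrix production, 3 were past the same fold, namely the latency protein Ltbp3 (log2 0.85) and the ligands Tgfb2 (0.71) and Tgfb3 (0.59). Its target Ccn2 had a log2 ratio of 0.44.

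The markers of resting fibroblasts differed far less than the activated genes. Their median log2 ratio was 0.15 over 10 genes, and their sum 1814 against 1564 CPM, with Dcn, the proteoglycan decorin, at 843 against 765 CPM. The microfibril gene Mfap5 was higher (log2 0.81, 0.59 to 1.03), and Scara5, at 6 UMIs, lower (-1.40, -2.88 to -0.24). Whether the matrix genes stood higher through more fibroblasts or through more RNA per fibroblast was not tested.

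Other non-muscle cell types gave small differences with few exceptions. The 10 macrophage markers had a median of 0.27 and a sum of 762 against 643 CPM. The complement gene C1qa was at 0.25 and the endotoxin co-receptor Cd14, at 22 UMIs, at 0.88. Within quadrants the macrophage median was 0.007 in the upper right, which holds most Sprr1a-rich spots. It was 0.40 in the upper left, 0.27 in the lower right and 0.59 in the lower left. Of the neutrophil and monocyte list only Ccr2 could be measured (0.13, -0.45 to 0.67), and of the lymphocyte list no gene. The 10 endothelial markers had a median of -0.27, with 2 at least 1.5-fold lower, Vwf (-0.69) and Emcn (-0.61). Endocardial markers had a median of -0.41 over 3 genes.

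Mural markers had a median of 0.26 over 10 genes, with 3 at least 1.5-fold higher and 0 lower. Within quadrants the mural median was 0.22 in the upper right and lower right, -0.11 in the upper left and -0.38 in the lower left. Cnn1, which encodes calponin-1, had the highest ratio of all measured list genes, with 75.5 against 14.01 CPM (log2 2.43, 2.07 to 2.79), 3.13 CPM in the control section and spot medians of 64.3 and 0. Tagln stood at 117 against 58.7 CPM (log2 0.99) and Myh11 at 32.9 against 20.8 (0.66). These were the 3 past the fold. The growth factor receptor gene Pdgfrb (0.35) and the proteoglycan gene Cspg4 (0.40) followed. Acta2, the smooth muscle actin with the most UMIs of this list, differed little (0.17), as did the pericyte gene Rgs5 (-0.21). The channel subunit gene Abcc9 was lower (61.1 against 88.4 CPM, log2 -0.53), with 254 CPM in the control section.

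Markers of tissues that heart muscle sections could carry along were rare. Keratinocyte genes, which in skin accompany Sprr1a, summed to 29 UMIs in the Sprr1a-rich spots (19.9 against 20.8 CPM in the remaining spots), with Krt5, Krt1, Ivl, Flg2 and Dsg3 at 0. Adipocyte genes summed to 3 UMIs, with Lep and Retn at 0, and lymphocyte genes to 15, with Cd8a at 0. The fast skeletal myosins Myh1, Myh2 and Myh4 were at 0, while the fast troponin gene Tnnt3 stood at 70.0 against 24.5 CPM (log2 1.51, 1.17 to 1.84). Atrial markers summed to 122 against 121 CPM, with Bmp10 and Fgf12 at 0. Of its 4 measured genes the light chain genes Myl4 (0.82) and Myl7 (0.63) were at least 1.5-fold higher, and the channel gene Kcnj3 (-0.96, -1.49 to -0.48) and the transcription factor gene Nr2f2 (-0.71, -1.61 to 0.07) lower. Epicardial genes summed to 54.2 against 53.4 CPM (log2 0.02, -0.34 to 0.36), and cell cycle genes summed to 39.1 against 47.9 CPM.

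Nerve and Schwann cell markers were close to the limit of detection. Of 13 genes only Tubb3 and Stmn2, a tubulin-binding protein of growing axons, reached 100 UMIs, with log2 ratios of 1.51 and 0.62 (0.11 to 1.11). The Schwann cell transcription factor gene Sox10 had 2 UMIs in all Sprr1a-rich spots together. Stmn2 was at 1.04 in the larger patch and at -0.32 over all Sprr1a-rich spots outside it. The genes known to be induced with Sprr1a and Gap43 in injured neurons had a median of 0.23 over 11 measured genes, with 5 at least 1.5-fold higher and 0 lower. Among them were the neuropeptide gene Cck (65.9 against 18.7 CPM, log2 1.82, 1.45 to 2.17), the feedback inhibitor Socs3 (0.96), the small heat shock protein gene Hspb1 (0.69) and Stmn2, whose count rests on the larger patch. The injury transcription factors Atf3 and Jun stayed within counting error, at 0.23 (-0.13 to 0.57) and 0.04 (-0.13 to 0.22) on the log2 scale.

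The gp130 pathway, through which interleukin-6-type cytokines act, had 2 of 11 genes past the fold upward and 0 downward, with a median of 0.18. Both belonged to its output or its ligands: Socs3, at 34.99 against 18.01 CPM, and the ligand Clcf1, at 21.96 against 11.31 CPM. On the log2 scale the receptor chain Osmr was at 0.51 (0.14 to 0.87), the shared chain Il6st at 0.34 (0.15 to 0.52), the signal transducer Stat3 at 0.18 (-0.02 to 0.37) and Il6ra at -0.35 (-1.22 to 0.42). Il6 and Lif were at no more than 2 UMIs in the Sprr1a-rich spots.

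The AP-1, integrated stress response, heat shock and p53 lists had medians between 0.05 and 0.15, each with members on both sides of 0. Such medians do not decide whether the tissue was stressed. The spots are named here by Sprr1a and not as stressed tissue. The AP-1 and immediate early genes had a median of 0.05 over 14 genes, with Junb at 0.62 (0.32 to 0.91) and Egr1 at -0.83 (-1.38 to -0.33). The integrated stress response had a median of 0.15 over 10 genes, with 0 at least 1.5-fold higher and 2 lower. The secreted factor Gdf15 was highest at 0.57 (0.28 to 0.86), and the lower genes were the serine synthesis enzyme Psat1 (-0.81, -1.59 to -0.12) and Aldh1l2, a mitochondrial folate enzyme (-0.62, -1.71 to 0.31). Heat shock genes had a median of 0.14 over 8 genes and p53 targets one of 0.09 over 13, with Cdkn1a at 0.09 (-0.01 to 0.19), Phlda3 at 0.63 (0.39 to 0.85) and the desmosomal gene Perp, at 5 UMIs, at -2.57 (-4.21 to -1.33). The antioxidant list had a median of 0.22 over 12 genes, with the selenoprotein Gpx3 at 6109 against 4013 CPM (log2 0.61), the sulfiredoxin gene Srxn1 at 0.80 and the mitochondrial Sod2 at -0.60. Of 3 measured inflammatory secreted genes, Serpina3n and Lcn2 were past the fold and Ccl6 was at -0.04. The interferon response genes had a median of -0.54 over 9, with 4 at least 1.5-fold lower, led by Rsad2 (-1.16, -1.89 to -0.51), and with the 3 genes of at least 500 UMIs alone the median was 0.06.

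**Figure D3:**
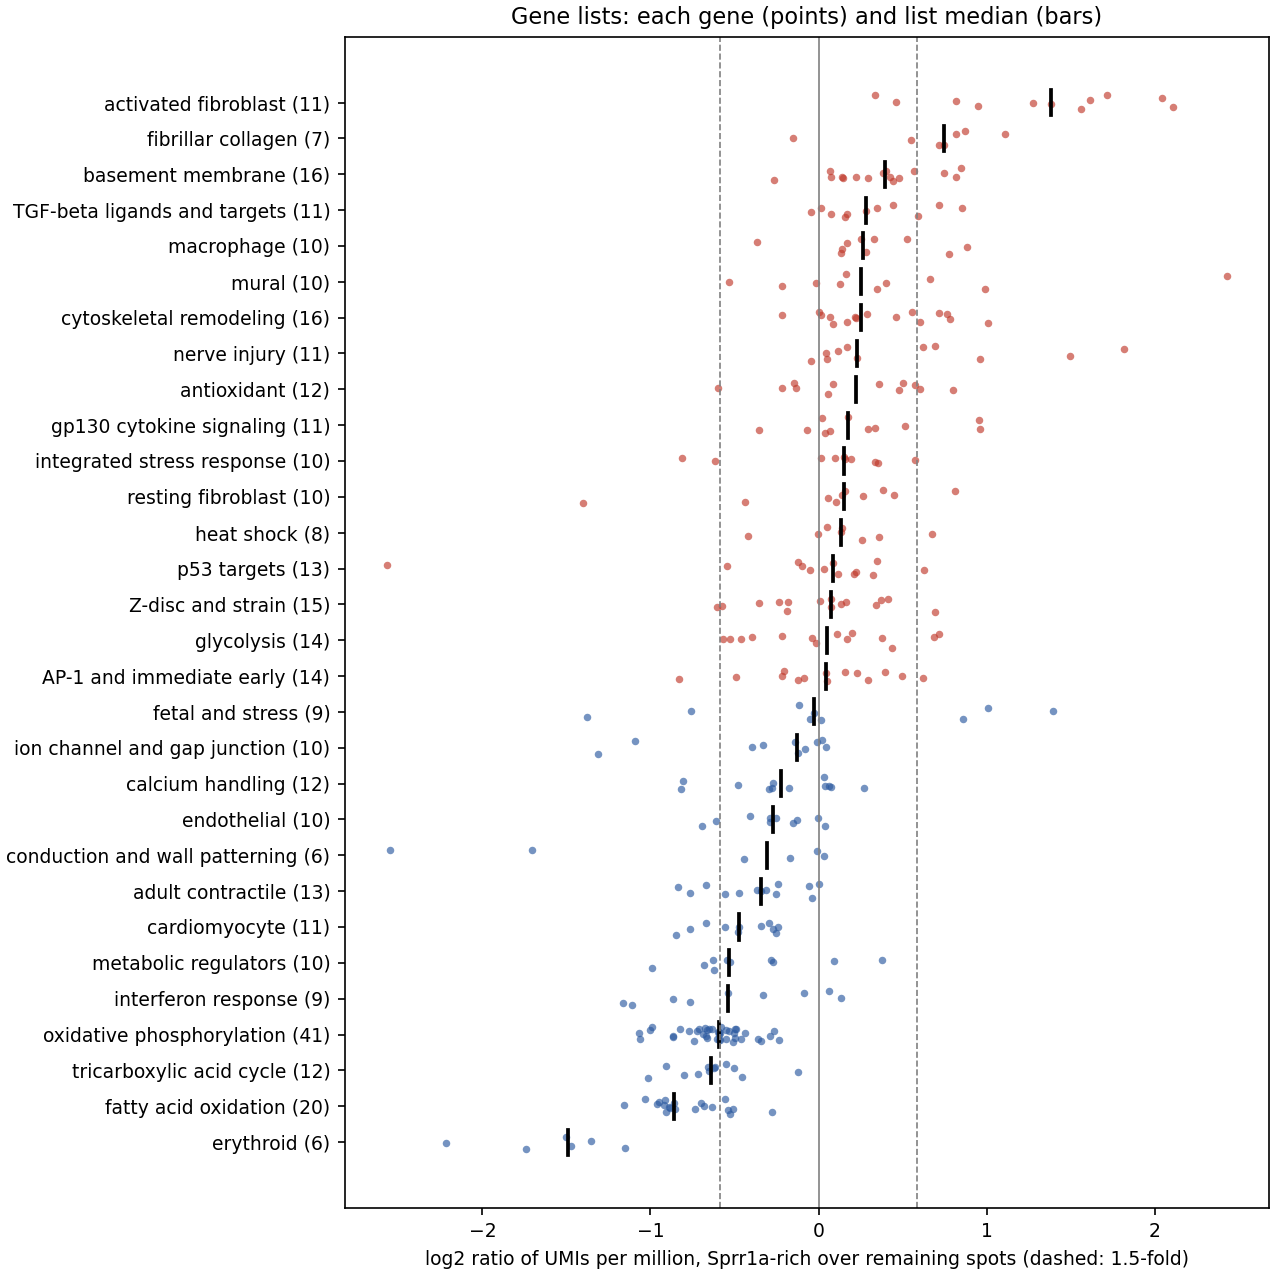
Log2 ratio of CPM in the Sprr1a-rich over the remaining spots, for each measured gene (points) of the lists with at least 6 measured genes (number in brackets), with the list's median as a black bar and dashed lines at 1.5-fold. The activated fibroblast list lies highest, at 1.38, the fatty acid oxidation list at -0.86 and the erythroid list lowest, at -1.49, while most stress lists lie near 0.

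The fetal and stress genes of the cardiomyocyte split. Their median was -0.03 over 9 measured genes, with 3 at least 1.5-fold higher and 2 lower. Nppa, the atrial natriuretic peptide, ran from 5973 to 73397 CPM per Sprr1a-rich spot (median 33078) and from 415 to 71927 per remaining spot (median 13226). Its sum was 33690 against 18549 CPM (log2 0.86, 0.85 to 0.88), and 274 in the control section. Against the remaining spots of the same quadrant Nppa passed 1.5-fold in the upper left only (1.33). It was at 0.53 in the upper right and at 0.11 in each lower quadrant. Acta1, the skeletal alpha-actin, stood at 2729 against 1358 CPM (log2 1.01, 0.96 to 1.06), and the stretch-responsive Ankrd2 at 22.6 against 8.61 (1.39, 0.78 to 1.98). Ankrd2 was at 1.57 in the larger patch and 2.00 in the smaller one, but at -0.08 in the scattered spots.

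Myh7, the slow beta-myosin heavy chain that is re-expressed with Nppa in loaded mouse ventricle, was lower (4858 against 8228 CPM, log2 -0.76, -0.80 to -0.73). It stood at 3957 CPM in the larger patch and 2519 in the smaller one, but at 8425 in the 26 scattered spots, which was not below the remaining spots. Myh8, the perinatal myosin, was lower at 13 UMIs (-1.38), and Ankrd1, another stretch-responsive gene, stood close to the remaining spots (-0.12). As a share of Myh6 and Myh7 together, Myh7 made up 53.2% (52.4 to 54.1, exact binomial) of UMIs in the Sprr1a-rich spots and 58.1% (57.9 to 58.4) in the remaining spots. In the control section the share was 0.182%, so both groups were far from it. Among strain-sensing Z-disc genes the median was 0.07 over 15, with Hspb1 at 3848 against 2379 CPM, the intermediate filament gene Des at 0.37 and the titin cap gene Tcap at -0.60.

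Cytoskeletal remodeling genes leaned upward, with a median of 0.26 over 16 genes, 5 at least 1.5-fold higher and 0 lower. Uchl1, a deubiquitinating enzyme abundant in neurons, stood at 467 against 232 CPM (log2 1.01, 0.89 to 1.13) and 9.81 CPM in the control section. The actin crosslinker Actn1 (0.78), the intermediate filament gene Nes (0.76), the capping protein gene Capg (0.72) and the calcium-binding protein gene S100a6 (0.60) followed. The tubulin gene Tuba1a was equal (0.00), and Marcksl1 was at -0.22.

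Mature cardiomyocyte genes were lower in the Sprr1a-rich spots as a group, with a median of -0.47 over 11 genes, 3 of them at least 1.5-fold lower (Mb, Myl3 and Myl2). Mb, the oxygen store myoglobin, stood at 2428 against 4369 CPM (log2 -0.85). The main contractile genes Ttn and Tnnt2 differed less (-0.24 and -0.26). Of the 92 spots 2 lay above the median of the remaining spots for the summed list, which was 42765 against 57874 CPM. The control section stood at 118886 CPM. Within quadrants the median was closer to 0 in the upper right (-0.18), which holds 62 of the 92 spots, and in the lower right (-0.21). It stood at -0.57 and -0.45 in the upper and lower left. The 13 adult contractile genes, which share members with these markers, had a median of -0.34, with Myom2 lowest (-0.84) and the tropomyosin gene Tpm1 nearly level (-0.04). Calcium handling genes had a median of -0.22 over 12, with the reticulum proteins Hrc (-0.82) and Casq2 (-0.81) lowest and the pump gene Atp2a2 at -0.27. Ion channel genes had one of -0.13 over 10, with 0 at least 1.5-fold higher and 2 lower, the potassium channel genes Kcna5, at 7 UMIs (-1.31, -2.65 to -0.23), and Kcnd3, at 6 UMIs (-1.09, -2.57 to 0.08), while Gja1, the main ventricular gap junction gene, was at 0.04 (-0.07 to 0.15). The patterning gene Irx1, at 9 UMIs, was the lowest gene of the conduction list (-2.55, -3.69 to -1.61). Within quadrants, with a count of 0 read as up to 3, its ratios were nearer 0. They were -1.31 in the upper right, -1.04 in the upper left, -0.82 in the lower right and -0.43 in the lower left.

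Fatty acid oxidation, the main fuel path of adult heart muscle, had 15 of 20 genes at least 1.5-fold lower and 0 higher, with a median of -0.86. Against the remaining spots of the same quadrant the median was -0.43 in the upper right, -1.15 in the upper left, -0.37 in the lower right and -0.48 in the lower left, so in all but the upper left it was under 1.5-fold. Per spot its summed level ran from 3630 to 18009 CPM (median 9115) in the Sprr1a-rich spots and from 0 to 34467 (median 15421) in the remaining spots, and 1 of the 92 lay above that median. The mitochondrial reductase Decr1 was lowest (151 against 336 CPM, log2 -1.16, -1.36 to -0.96), and Fabp3, the fatty acid carrier of muscle, stood at 3080 against 5779 CPM (-0.91). The dehydrogenases Acadl and Acadvl were at -0.95 and -0.92 and the entry enzyme Cpt1b at -0.88, while Cpt1a was at -0.27.

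The other mitochondrial paths went the same way. Of 41 oxidative phosphorylation genes 25 were at least 1.5-fold lower and 0 higher (median -0.59), and of 12 genes of the tricarboxylic acid cycle 8 were lower and 0 higher (median -0.64). Within quadrants these medians shrank to -0.26 and -0.27 in the upper right and to -0.27 and -0.12 in the lower right, and stood at -0.71 and -0.79 in the upper left and -0.63 and -0.76 in the lower left. Cox7a1, the muscle form of a cytochrome oxidase subunit, stood at 691 against 1448 CPM (log2 -1.07), and Idh2, the mitochondrial isocitrate dehydrogenase, at 854 against 1723 (-1.01). Ckmt2, the mitochondrial creatine kinase of muscle, was among the 12 lowest genes. It ran from 0 to 1900 CPM per Sprr1a-rich spot (median 522) and from 0 to 4825 per remaining spot (median 1144), and 2.17% of the Sprr1a-rich spots lay above that median. Its sum was 544 against 1386 CPM (log2 -1.35, -1.45 to -1.25), with 3041 in the control section.

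Among the 12 lowest genes were also Acss1, the mitochondrial acetyl-CoA synthetase (46.7 against 129 CPM, log2 -1.47), and Plin5, a lipid droplet protein that tethers droplets to mitochondria (45.3 against 113 CPM, log2 -1.32). The regulators of these genes had a median of -0.53 over 10, with 4 at least 1.5-fold lower (Rxrg, Esrrb, Ppara and Ppargc1b). The coactivator Ppargc1a was at -0.54 (-0.93 to -0.18), and Ppard at 0.38 (-0.24 to 0.95). Glycolysis did not follow, with a median of 0.05 over 14 genes. There the ubiquitous glucose transporter Slc2a1 was at 0.72 (0.50 to 0.93), Pgam1 at 0.69, Aldoa at -0.04, and the insulin-regulated Slc2a4 at -0.57.

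The metabolic genes were lower in the Sprr1a-rich spots together with the cardiomyocyte markers. Set against cardiomyocyte UMIs in place of all UMIs, fatty acid oxidation was at 0.224 against 0.293 UMIs per cardiomyocyte UMI (log2 -0.39), the tricarboxylic acid cycle at 0.102 against 0.123 (-0.27) and oxidative phosphorylation at 0.619 against 0.688 (-0.15). On this scale the differences were smaller than in CPM, and the control section stood at 0.246, 0.0936 and 0.620, closer to the Sprr1a-rich than to the remaining spots for all 3 lists. The fetal and stress genes, of which Nppa had the most UMIs, stood at 1.23 against 0.696 (0.82). The cardiomyocyte list itself stood at 118886 CPM in the control section, 57874 in the remaining spots and 42765 in the Sprr1a-rich spots. This scale therefore does not count cardiomyocytes. In CPM, fatty acid oxidation stood at 29302 in the control section, closer to the remaining (16937) than to the Sprr1a-rich spots (9570).

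Red cell genes were the lowest list. All 6 of its genes were at least 1.5-fold lower, with a median of -1.49 and a sum of 6938 against 22120 CPM, and 2028 CPM in the control section. Among the 50% of spots poorest in erythroid genes the median was 0.0587, with Hba-a2 at 0.0204 and Alas2 at 0.44. Those spots were picked on the counts of this same list, so they cannot decide whether the direction holds. Hba-a2, an alpha-globin gene, had the lowest ratio of the 12 (5031 against 16815 CPM, log2 -1.74). Its spot medians were close, 3616 and 4639 CPM, while its highest remaining spot reached 795941. Erythroid genes took over 10% of UMIs in 53 of the 829 remaining spots (6.39%) and in 0 of the 92, which allows up to 3.26%. Without those 53 spots the remaining spots stood at 8447 CPM for the erythroid list, under 1.5-fold above the Sprr1a-rich spots, 58887 for the cardiomyocyte list and 17242 for fatty acid oxidation, so the last pair of differences was slightly larger without them. Tent5c, Hbb-bt, Hbb-bs and Alas2, all known from red cell precursors or red cells, were also among the 12 lowest. The growth factor gene Igf2 (-1.45) and the cytochrome P450 gene Cyp4b1 (-1.27) were there too.

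The patches differed from each other and from the scattered spots. All 12 highest genes were past 1.5-fold in the larger patch and in the smaller one, and 8 of 12 in the scattered spots, where their log2 ratios lay between 0.25 and 1.34. The same direction in every quadrant was part of how these genes were chosen, so it adds nothing. The activated fibroblast list had a median of 1.38 in the larger patch, 1.89 in the smaller one and 0.54 in the scattered spots. For fatty acid oxidation these values were -0.92, -1.01 and -0.51. Other lists changed sign between the patches: the mural median was 0.30 in the larger patch and -0.29 in the smaller one, with Acta2 at 0.04 and -0.83.

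Set directly against each other, the smaller patch held more Postn than the larger one (2605 against 1214 CPM, log2 1.10, 0.95 to 1.25) and more Acta1 (5313 against 2393 CPM, log2 1.15, 1.05 to 1.25). It held less Comp (454 against 729 CPM, -0.68, -0.996 to -0.384) and less Myh7 (2519 against 3957 CPM, -0.65). Gpx3 and Hspb1 were level between them (0.00 and 0.04), and for Serpina3n the interval spanned 0 (-0.63 to 0.13). The Myh7 share of Myh6 and Myh7 was 48.8% in the larger patch, 39.2% in the smaller one and 63.9% in the scattered spots, with the remaining spots, at 58.1%, between the patches and the scattered spots. These intervals count UMIs of 54 and 12 spots of 1 section and do not carry the spread between hearts.

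**Figure D4:**
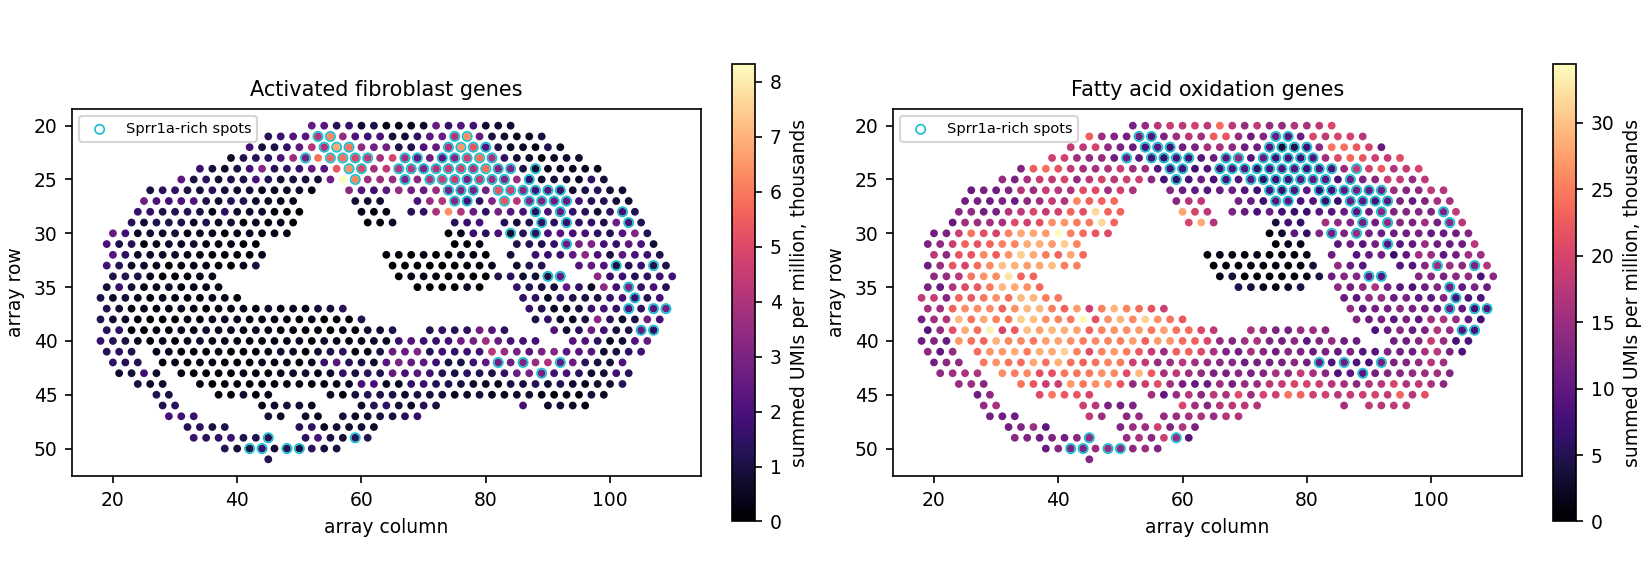
Maps of the transgenic section by array column and array row, colored by the summed CPM (color scale in units of 1000 CPM) of the activated fibroblast genes (left) and the fatty acid oxidation genes (right), with the Sprr1a-rich spots ringed. The ringed patches in the upper wall are bright on the left, with a median Sprr1a-rich spot at 3022 CPM against 931, and dark on the right, at 9115 against 15421.

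The differences faded over several spots and did not stop at the border of the chosen ones. At 0, 1, 2, 3, 4 to 6, 7 to 10 and over 10 steps from the nearest Sprr1a-rich spot, the activated fibroblast genes summed to 3333, 2086, 1503, 1028, 947, 772 and 730 CPM. Fatty acid oxidation stood at 9570, 12362, 14156, 15080, 16722, 21196 and 21062 CPM over the same distances. Thbs4 went from 275 to 18.0 CPM and Ckmt2 from 544 to 1914.

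Spots without any Sprr1a or Gap43 UMI, all of them among the remaining spots, showed a similar course. At 1 step (28 spots) and at over 10 steps (127 spots), the activated fibroblast genes summed to 1598 and 589 CPM, the fibrillar collagens to 6422 and 3076, and fatty acid oxidation to 13848 and 22874. Postn stood at 509 and 190 CPM, Nppa at 24074 and 8734, and Ckmt2 at 858 and 2151. Erythroid genes peaked between these distances, at 59876 CPM for all spots at 4 to 6 steps, and the share of edge spots was highest at 3 steps (60.4%). Their part in the gradients was not tested.

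**Figure D5:**
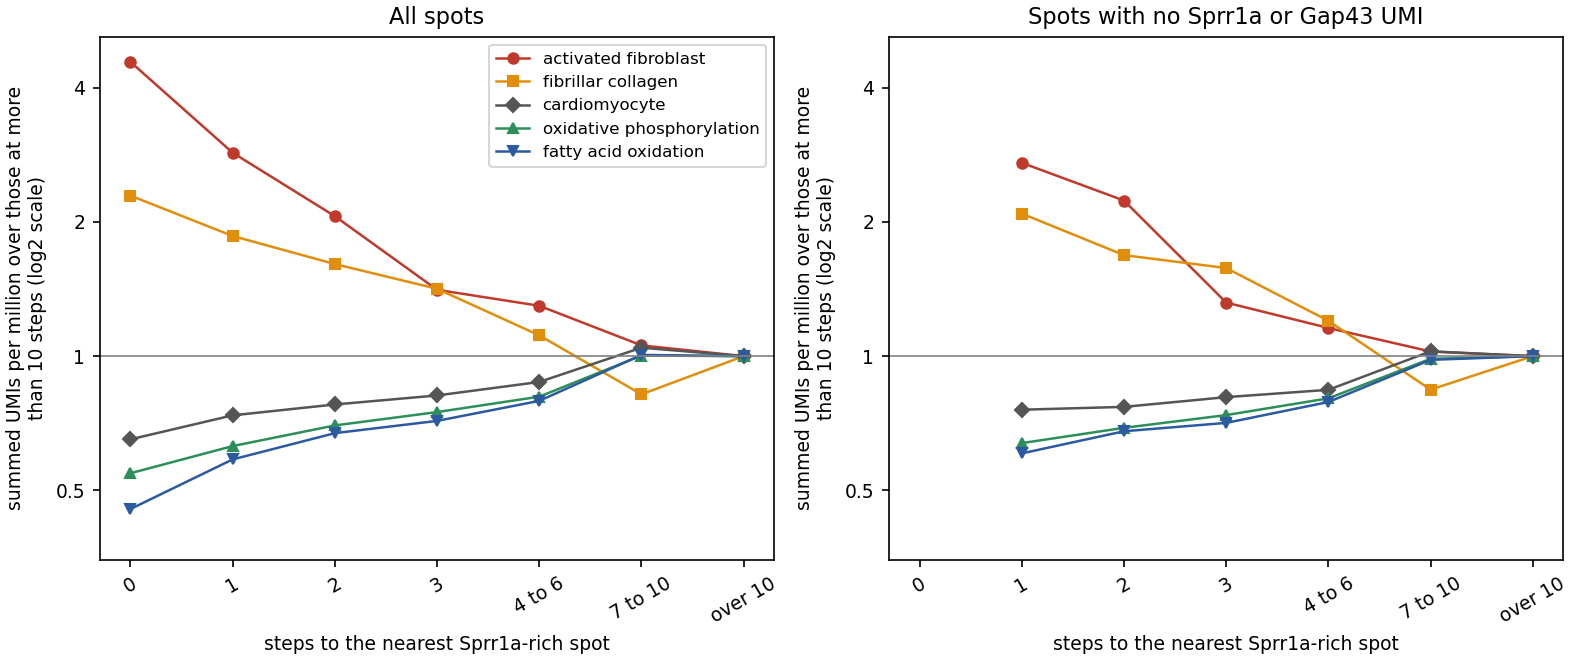
Summed CPM of 5 gene lists by steps to the nearest Sprr1a-rich spot, divided by the value at more than 10 steps (log2 axis), for all spots (left) and for spots with no Sprr1a or Gap43 UMI (right). In both panels the activated fibroblast and collagen lists lie highest near the Sprr1a-rich spots and the cardiomyocyte and mitochondrial lists lowest.

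The 5 genes with at least 500 UMIs whose share of UMIs followed the score most closely over the 921 spots are listed as a description only, since the score itself ranked them and chose the spots. Clu, which encodes the extracellular chaperone clusterin, had a Spearman rho of 0.67 and stood at 10153 against 5142 CPM (log2 0.98). Gpx3 followed at 0.62, Igfbp7, a secreted growth factor binding protein, at 0.60, Hspb1 at 0.59 and Mgp, the calcification inhibitor matrix Gla protein, at 0.58. These correlations describe spots of 1 library that share depth and neighbors. The tenth of spots with the most activated fibroblast CPM shared 49 of its 92 spots (53.3%) with the Sprr1a-rich spots, that with the most fibrillar collagen 31 (33.7%), and that with the most Nppa 22 (23.9%). The tenth with the most UMIs per spot shared 21 (22.8%), close to the overlap for Nppa. For comparison, the Sprr1a-rich spots made up 9.99% of the 921 spots. The tenth with the highest Myh7 share of Myh6 and Myh7 had 3 spots in common with them, and the tenth with the lowest share 28.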

How the data were processed

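The authors made the deposited counts with Space Ranger 2.0.0; the submitters' processing notes name the builds GRCm39 and mm39. The values are raw UMI counts for each gene in each spot; a deposited score, Moran's I, was used as given. Spots over tissue with at least 1000 UMIs were kept, and for 11 duplicated symbols the ID with the most UMIs was used. UMIs were summed over spots, expressed per 1000000 UMIs (CPM), and compared as ratios of summed UMIs over genes with at least 100 UMIs, with exact binomial (ratios, shares) and Poisson (levels) 95% intervals. With 1 section per genotype and spots chosen on the same counts, no test was made; spot values have no interval. Each section's summed UMIs set its precision. A count of 0 is read as up to 3.

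Named genes were the 12 highest and 12 lowest ratios among genes with at least 500 UMIs and 1 direction in every quadrant with at least 5 Sprr1a-rich spots, the highest, lowest and most counted gene with at least 100 UMIs of each of 41 lists, and the 5 genes most like the score; further list genes were chosen after their values were seen. The spots and lists were chosen with earlier results of these data known. Of the settings, 14 were planned and 4 were added after seeing the data. Scripts were tested on simulated data. Python 3.11.15, numpy 2.4.6, pandas 2.3.3, scipy 1.17.1 and matplotlib 3.10.9 were used, and edgeR 4.0.16 and DESeq2 1.42.0 (R 4.3.3) only for scaling factors. The authors' own comparisons were not used, and 5 genes, 1 of them among the 12 lowest, are not reported here.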

Additional observations from a re-analysis of the deposited data

How the results depend on the processing

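In every setting run the activated fibroblast median stayed between 1.22 and 1.93 and the fatty acid oxidation median between -1.03 and -0.64. The fetal and stress median stayed between -0.13 and 0.08. These ranges leave out the comparisons within quadrants and the scattered spots alone. Within quadrants the activated fibroblast median ran from 0.63 to 2.18 and the fatty acid oxidation median from -1.15 to -0.37. In the scattered spots these medians were 0.54 and -0.51. Scaling by edgeR TMM or DESeq2 factors shifted all log2 ratios by -0.11, leaving 326 genes higher and 769 lower, and an oxidative phosphorylation median of -0.70 under each. A minimum of 20 UMIs per gene gave 1201 and 1080 genes, by construction with more genes tested, and one of 500 UMIs gave 151 and 183. Taking 5% of spots gave 894 genes lower, and 20% gave 284. Settings chosen after seeing the data gave 767 genes lower in the larger patch only, 838 outside it, and 315 higher in the 50% of spots poorest in erythroid genes. The oxidative phosphorylation median was -0.53 with Gap43 alone as score, -0.54 with spots thinned to 5000 UMIs, -0.51 outside the larger patch and -0.74 against remaining spots at least 3 steps away. In those erythroid-poor spots, the erythroid median turned to 0.0587, Hba-a2 to 0.0204, Hbb-bt to 0.10, Alas2 to 0.44 and Slc4a1 to 0.40; fewer blood-rich spots remain there by construction. Outside the larger patch Stmn2 turned to -0.32 and Msln to 0.48, and away from the tissue edge Msln turned to 0.21; for the other changes the cause was not tested. Gap43 alone chose 55 of the same 92 spots, Sprr1a alone 82. The choice rests on few marker UMIs, with a median of 10 per chosen spot. With spots thinned to 5000 UMIs for the score, 69 of 88 chosen spots were shared with the main choice. No paired analysis was possible because each genotype has 1 section.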
